A study of Mus musculus with 4 samples.

Results

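The expression tables of wild-type (WT) and *Bmal1* KO mouse embryonic stem cells (ESCs) list 19645 transcribed features, each with a locus and an FPKM value. The 1935 features described here (9.85% of all) are those whose gene symbol was left blank, and no measured value entered that choice. The other 17710 features carry a symbol. ESCs are pluripotent cells derived from the early embryo, and they were grown undifferentiated with LIF. The 2 WT libraries carry no named genetic change. The 2 KO libraries come from a single ESC line in which CRISPR-Cas9 left a short frameshift deletion in *Bmal1* (*Arntl* in the tables), the gene of a core transcription factor of the circadian clock. Total RNA was depleted of ribosomal RNA before sequencing. The study describes the libraries as biological duplicates, and the labels number them without naming separate cultures. P-values therefore measure only the spread between these libraries, shared in part across features, and what was repeated between duplicates is not stated. *Arntl* itself stood at 6.05 and 6.29 FPKM in WT and at 5.95 and 5.92 FPKM in KO, so its RNA level does not distinguish the genotypes. Summed FPKM of the 8 ESC markers, such as *Pou5f1* and *Nanog*, ranged from 5887 to 6432, against 1.67 to 2.90 for the 4 measured feeder fibroblast markers, 0.816 to 0.924 for the 5 primitive endoderm markers and 0.220 to 0.335 for the 3 measured trophoblast markers. Values of a feature are given below in the order WT replicate 1, WT replicate 2, KO replicate 1, KO replicate 2.

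Loci without a symbol in such tables are of several kinds. A processed pseudogene is a copy of a messenger RNA that was reverse transcribed and inserted elsewhere in the genome, and a young copy can be almost identical to the gene it came from. Housekeeping genes with abundant messenger RNAs, such as those of ribosomal proteins, have left many such copies in mammalian genomes. Long non-coding RNAs are transcripts without a protein product, often at low level and near genes of developmental regulators. FPKM is the number of sequenced fragments scaled to the length of the transcript in kilobases and to the size of the library, and Cufflinks counts as length only the positions at which a fragment of the library's sizes could start, so that a very short feature is divided by a very small length.

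The features without a symbol were shorter at the median than those with one, and most did not overlap a feature with a symbol. Their median span was 1589 bases (quartiles 922 and 4875), whereas features with a symbol had a median span of 27072 bases. Of the 1935, 37 spanned under 200 bases, 59 from 200 to under 300, 463 from 300 to under 1000, 1028 from 1000 to under 10000 and 348 spanned 10000 or more. The nearest feature with a symbol was a median of 10724 bases away (quartiles 1870 and 48928). In all, 180 overlapped a feature with a symbol, 226 lay under 1000 bases away, 335 at 1000 to under 5000, 718 at 5000 to under 50000 and 476 at 50000 or more. The 180 overlapping features were among 296 that share 1 of 134 loci with other features, because the tables give several transcripts of a complex locus the same coordinates, and their exact position is therefore uncertain. The locus with most of them, chr13:65930949-66305228, holds 21 in a zinc finger gene cluster on chromosome 13, with summed values of 23.1 to 33.0 FPKM per library. The locus chr8:43129807-43180258 around *Triml1* holds 13, with 142, 153, 166 and 117 FPKM.

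They were found on all 21 chromosomes of the mouse nuclear genome. Chromosome 8 had most (186, or 17.1% of its features). On chromosome 12 they made up 19.5% of the features (145), on chromosome 13 16.4% (134) and on Y 5 of 14. The share on the other chromosomes ran from 6.88% to 11.1%. Compared with the GENCODE M21 annotation of GRCm38, 224 were placed in pseudogenes, 414 in long non-coding RNA genes, 384 in protein-coding genes and 13 in other small classes, and 900 lay outside annotated genes. At least 1 base of an exon was covered by 856, and 179 were confined to introns. RefSeq had a gene at 301 of the 900 features outside GENCODE genes. None was assigned to the 7SK and 7SL, RNase P, MRP and telomerase, Y and vault, ribosomal or spliceosomal RNA classes, nor to *Malat1* or *Neat1*. Features with a symbol are listed for *Malat1* and *Neat1*, for 3 genes of the RNase P, MRP and telomerase class and for 1 ribosomal RNA gene.

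Sequence was taken from the GENCODE M21 transcripts (GRCm38) for 114 features that lie wholly inside an exon and for the exonic stretch of at least 40 bases of those under 300 bases. A stretch in a pseudogene was available for 49 features, and 48 of them aligned to a protein-coding transcript of another gene. Identity over the aligned bases ranged from 90.9% to 100% with a median of 99.1%. In 16 of the 48 the best match was a ribosomal protein gene. Of the 45 whose matching gene is listed once in the tables, 40 had a matching gene with a mean of at least 50 FPKM. The 8 stretches below are shown because they belong to the features with the highest FPKM, the most fragments or a marked difference between genotypes. Each is limited to the part that aligns with the coding sequence of the matching gene and to at most 300 bases. Capitals mark bases that differ from that gene.

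Gm14539, chrX:20581141-20581183 (- strand): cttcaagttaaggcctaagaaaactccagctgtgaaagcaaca
Gm12174, chr11:46728547-46728627 (+ strand): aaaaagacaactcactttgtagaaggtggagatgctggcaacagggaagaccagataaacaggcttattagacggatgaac
Gm6278, chr16:85644537-85644698 (+ strand): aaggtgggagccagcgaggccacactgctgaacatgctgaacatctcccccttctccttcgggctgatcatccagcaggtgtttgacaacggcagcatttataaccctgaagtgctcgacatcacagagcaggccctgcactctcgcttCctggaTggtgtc
Rps25-ps1, chr6:145266400-145266499 (+ strand): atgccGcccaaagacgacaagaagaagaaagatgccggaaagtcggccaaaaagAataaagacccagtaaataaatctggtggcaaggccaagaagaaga
D9Wsu149, chr9:57483396-57483553 (+ strand): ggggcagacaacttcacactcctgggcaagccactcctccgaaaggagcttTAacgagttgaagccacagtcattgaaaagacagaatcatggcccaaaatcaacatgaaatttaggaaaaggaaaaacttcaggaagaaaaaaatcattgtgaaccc
Impdh2-ps, chr8:100030558-100030673 (+ strand): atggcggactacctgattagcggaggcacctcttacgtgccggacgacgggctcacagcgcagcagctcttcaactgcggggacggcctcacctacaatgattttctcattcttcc
Gm11361, chr13:28257857-28258091 (+ strand): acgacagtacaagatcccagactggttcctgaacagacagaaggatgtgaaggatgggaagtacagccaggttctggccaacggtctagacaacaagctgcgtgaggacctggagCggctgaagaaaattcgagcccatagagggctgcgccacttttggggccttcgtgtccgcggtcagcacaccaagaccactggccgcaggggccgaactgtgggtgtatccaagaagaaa
Gm8730, chr8:102865445-102865744 (- strand): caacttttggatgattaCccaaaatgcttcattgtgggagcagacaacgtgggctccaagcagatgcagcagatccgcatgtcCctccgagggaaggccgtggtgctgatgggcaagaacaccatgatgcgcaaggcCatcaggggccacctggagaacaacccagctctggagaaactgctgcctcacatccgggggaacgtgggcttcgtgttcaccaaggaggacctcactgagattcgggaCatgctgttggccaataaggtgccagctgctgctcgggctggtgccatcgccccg

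The matching genes are *Usmg5* for Gm14539, a small protein of the mitochondrial ATP synthase, and *Mrpl21* for D9Wsu149, a protein of the mitochondrial ribosome. For Gm12174, Rps25-ps1 and Gm11361 they are the cytoplasmic ribosomal protein genes *Rpl7*, *Rps25* and *Rps18*. Gm6278 and Gm8730 both match *Rplp0*, which encodes a protein of the ribosomal stalk, and Impdh2-ps matches *Impdh2*, an enzyme of guanine nucleotide synthesis. The stretches of Gm14539, Gm12174 and Impdh2-ps had 0 differences over 43, 81 and 116 bases, and those of Gm6278, Rps25-ps1 and D9Wsu149 had 2 differences over 162, 100 and 158 bases. Over these lengths the annotated copy and its match are the same or nearly the same string of bases. Which of the copies a read came from was not tested, and the values of these features are uncertain for that reason.

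The features without a symbol held 26.8% and 37.3% of summed FPKM in WT and 19.0% and 18.1% in KO. The mean was 32.1% ± 7.44 in WT and 18.6% ± 0.582 in KO (SD, n = 2), and the difference of -13.5 percentage points had p = 0.333 in a two-sided exact permutation test, the smallest p that 2 against 2 libraries allow. Both WT libraries lay above both KO libraries, but the WT libraries differed from each other by more than either KO library differed from WT replicate 1. Without WT replicate 2 the difference was -8.27 percentage points. Nearly all of this FPKM was in short features. The 96 features under 300 bases held at least 97.5% of the FPKM of features without a symbol in every library, and those under 200 bases held 88.8% to 94.2%. When features with and without a symbol that span at least 300 bases were summed, the share without a symbol was 0.574%, 0.612%, 0.584% and 0.526%.

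The FPKM of features of equal span were whole multiples of 1 value, which is the FPKM that 1 fragment gives at that span. With this value fitted along the span, 94.7% to 95.5% of the values tested per library were whole within 0.05 of a fragment, a window that covers 10% of all values. The fit was made on these same values, so this share is partly fixed by it and is no independent check of the recovery. Fragment numbers were recovered in all 4 libraries for 1194 of the 1639 features with a locus of their own. Where 1 of the shortest features was alone at its span, the value of a fragment was interpolated from other spans. Fragment numbers of such features are approximate. The same fit gave 23220000 to 25580000 fragments per library and a mean fragment length of 260 to 279 bases, and 63 of the 1194 features are shorter than the lowest of these means. At a span of 1000 bases, 1 fragment was worth 0.0536, 0.0580, 0.0591 and 0.0566 FPKM, and at 200 bases it was worth 22.0, 38.3, 21.2 and 16.4 FPKM. At 160 bases it was worth 662, 1292, 582 and 452 FPKM. The value of a fragment was thus close in the 4 libraries for features of ordinary length and far apart for the shortest. At 160 and 200 bases it was highest in WT replicate 2, the library with the longest mean fragment (279 bases). There it was lowest in KO replicate 2, the library with the shortest (260 bases). At 1000 bases it was highest in KO replicate 1 and lowest in WT replicate 1.

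**Figure D1:**
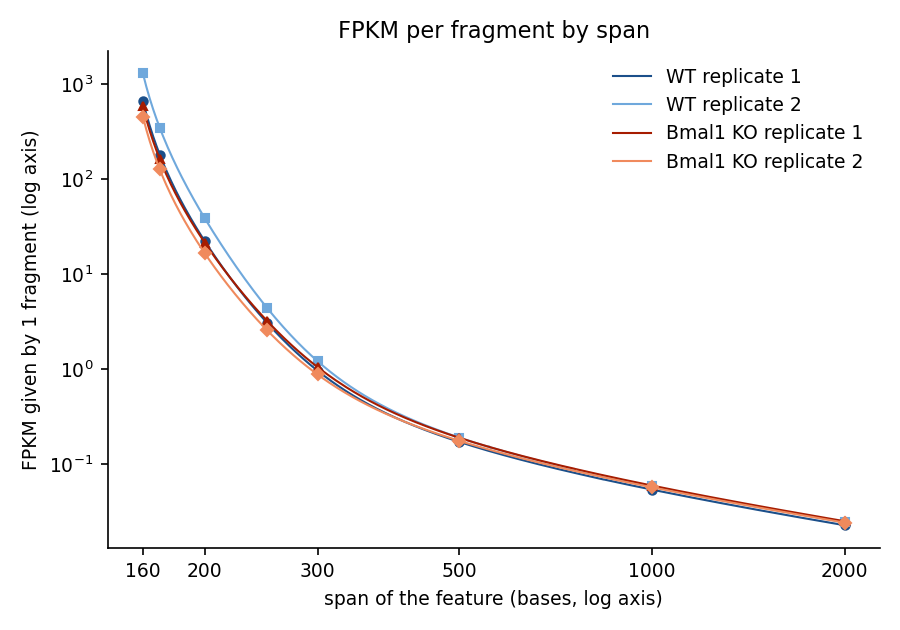
FPKM given by 1 fragment (vertical, log axis) against the span of the feature in bases (horizontal, log axis) in each library. Lines are the fitted values and points mark 8 chosen spans. The 4 lines run close together from 500 bases upwards and separate below 300, where WT replicate 2 is highest and KO replicate 2 lowest.

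Counted as fragments, the short features were a small part of the libraries. The 91 features under 300 bases with recovered fragments held 15.7%, 25.5%, 12.9% and 12.4% of summed FPKM and 6084, 5451, 5740 and 6074 fragments, or 0.0238%, 0.0228%, 0.0247% and 0.0255% of all fragments. The FPKM share was lower in both KO libraries, whereas the fragment share was slightly lower in both WT libraries. All 1194 recovered features held 0.134%, 0.136%, 0.134% and 0.129% of fragments. Of the recovered fragments, features under 200 bases took 1.70% to 2.05%, and those of 1000 to under 10000 bases took 48.3% to 50.4%. These percentages cover only features with recovered fragments.

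**Figure D2:**
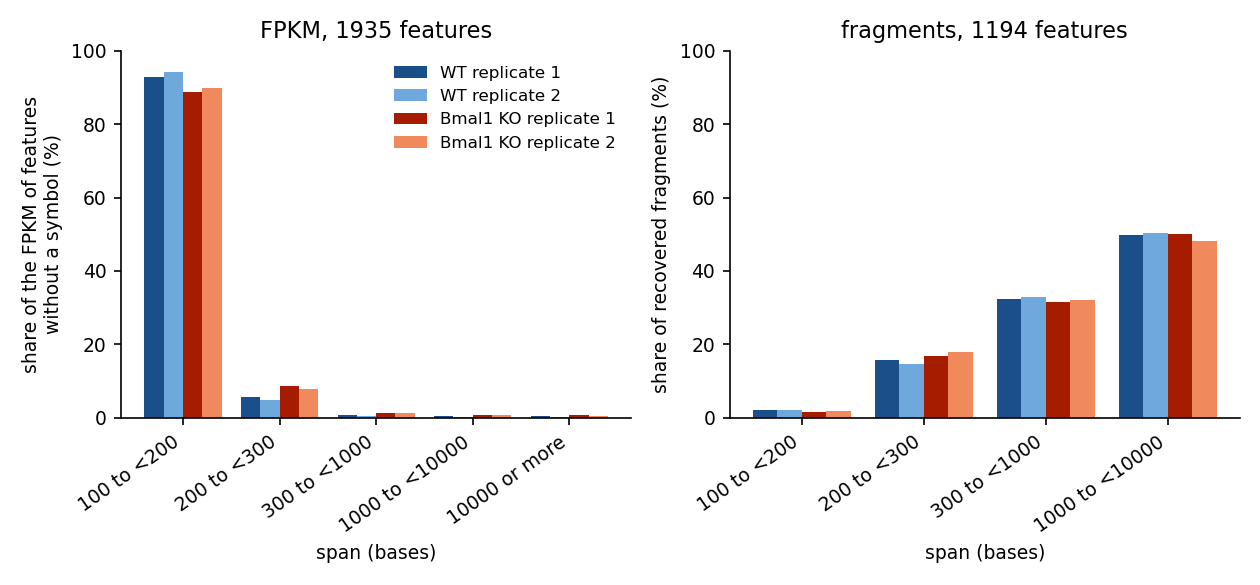
Share of the FPKM of the 1935 features without a symbol (left, %) and of the fragments of the 1194 recovered ones (right, %) by span class in bases, 1 bar per library. Features of under 200 bases hold 88.8% to 94.2% of the FPKM and 1.70% to 2.05% of the recovered fragments. No feature of 10000 bases or more had recovered fragments.

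The 10 features with the highest mean FPKM spanned 153 to 166 bases and together held 68.2% to 73.0% of the FPKM of features without a symbol. GENCODE has a processed pseudogene at 8 of them. The highest mean was at chr3:106034912-106035064 in Gm4540, with 54344, 33200, 22081 and 8522 FPKM. WT exceeded KO in each library there, and the log2 fold change of KO over WT was -1.63 (SE 0.47, adjusted p = 0.0800 by limma), short of the threshold of 0.05. The next, chrX:20581026-20581183 in Gm14539, stood at 18288, 58555, 13540 and 15089 FPKM (-1.20, SE 0.51, limma adjusted p = 0.184). WT replicate 2 was far above the other 3 libraries. These values came from 19, 31, 16 and 23 fragments, so that the KO to WT ratio of fragments was 0.820 with an exact 95% interval of 0.525 to 1.27.

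Of the 10, 3 were called lower in KO, where a call needs an adjusted p under 0.05 by limma and a change over 2-fold. At chr15:93678603-93678759, where RefSeq has the pseudogene Zfp42-ps1, the values were 19109, 37616, 8402 and 4882 FPKM (log2 fold change -2.07, SE 0.38, limma adjusted p = 0.0253). At chr18:34970346-34970502, the pseudogene Gm6724 of RefSeq, they were 13137, 37616, 3151 and 4882 FPKM (-2.50, SE 0.49, limma adjusted p = 0.0299). Groups did not overlap at either. Both features span 157 bases, and their identical values in WT replicate 2 and again in KO replicate 2 mean equal numbers of fragments, which could not be resolved at this span. Both calls were lost without the filter on low values (limma adjusted p = 0.0755 and 0.0801) and without the variance trend (0.0674 and 0.0769). The 161-base feature chr7:134661762-134661922, with no annotated gene and 8765 bases from *Dock1*, stood at 10086, 21837, 2960 and 5371 FPKM (-1.90, SE 0.42, limma adjusted p = 0.0420). It had 18, 20, 6 and 14 fragments, with the value of a fragment interpolated at this span, and a KO to WT ratio of 0.553 (0.305 to 0.975). With fragments per kilobase of span in place of FPKM the call was lost (log2 fold change -0.95, limma adjusted p = 0.121). The call was also lost without the filter and without the variance trend (limma adjusted p = 0.1003 and 0.0965).

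The remaining 5 were not called. The 162-base feature in Gm6278 stood at 19198, 41073, 13969 and 12185 FPKM and had 40, 44, 33 and 37 fragments (chr16:85644537-85644698, fragment ratio 0.876, 0.629 to 1.22). WT exceeded KO on both scales, and WT replicate 2 stood apart from WT replicate 1 in FPKM but not in fragments. The feature in Gm12174 stood at 19522, 27662, 14742 and 26585 FPKM, with overlapping groups (chr11:46728547-46728700). That in Rps25-ps1 stood at 23100, 17000, 17771 and 9840 FPKM and had 24, 9, 21 and 15 fragments, a ratio of 1.15 (0.695 to 1.90, chr6:145266342-145266499). Its FPKM mean was lower in KO and its fragment ratio was above 1, with groups that overlapped on both scales. The features in D9Wsu149 (chr9:57483396-57483553) and in Gpx4-ps2 (chr10:45875918-45876083), a copy of the gene of a lipid peroxide reductase, had 7, 15, 5 and 13 and 14, 36, 18 and 34 fragments, with ratios of 0.860 (0.435 to 1.68) and 1.09 (0.727 to 1.65). These intervals cover counting error only. The features of 161, 162 and 166 bases were each alone at their span, so their fragment numbers rest on interpolation and are approximate. Leaving out 1 library brought calls in FPKM, all lower in KO: without WT replicate 1 at Gm14539 (log2 fold change -2.03), Gm6278 (-1.65), D9Wsu149 (-2.24) and Gpx4-ps2 (-1.84), without KO replicate 1 at Gm6278 (-1.20) and Rps25-ps1 (-1.01), and at Gm4540 without any but KO replicate 2 (-2.32 to -1.28).

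**Figure D3:**
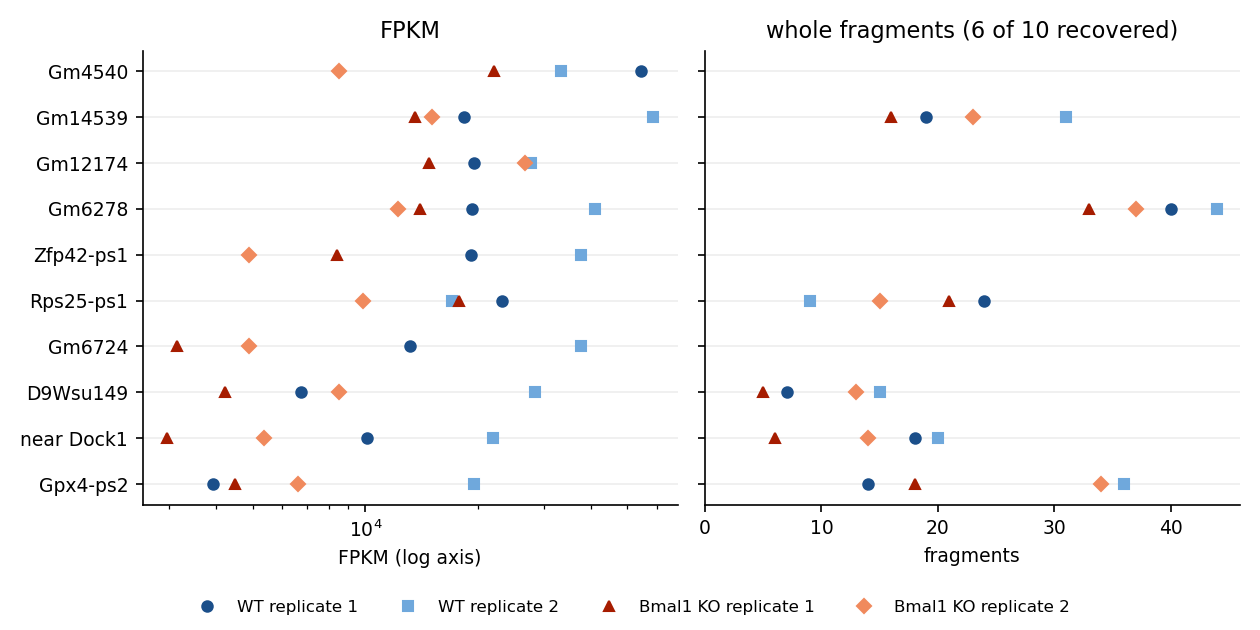
FPKM (left, log axis) and whole fragments (right) of the 10 features without a symbol with the highest mean FPKM, 1 point per library, named by the annotated gene or nearest gene. In FPKM, WT replicate 2 is the highest library for 8 of the 10. The 6 features with recovered fragments have 5 to 44 fragments per library, and the groups overlap in 4 of the 6. Fragment numbers at spans of 161, 162 and 166 bases are approximate.

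Other features ranked first by fragments; they were chosen after their values were seen. The 461-base feature in the *Rplp0* copy Gm8730, chr8:102865284-102865744, had 3729, 3422, 2899 and 3228 fragments and 764, 784, 656 and 673 FPKM (log2 fold change -0.22, limma adjusted p = 0.116). The 290-base feature chr4:69925215-69925504, RefSeq gene Gm11223, had 2388, 2096, 2509 and 2732 fragments and hardly differed in FPKM (0.03, limma adjusted p = 0.883). At chr1:135232123-135233384 in Gm4204 there were 2137, 1697, 1991 and 1697 fragments (0.01, limma adjusted p = 0.975). Each of these 3 had more fragments in every library than any of the 6 resolved features of the 10 with the highest FPKM. Over the 1194 recovered features the median was 37 fragments in the 4 libraries together, 180 had fewer than 20 and 166 had at least 100.

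Replicates of one genotype differed more at features without a symbol than at features with one. Of the 1046 features without a symbol that had a mean of at least 0.5 FPKM and entered the test, 200 (19.1%) differed over 2-fold between the WT libraries and 184 (17.6%) between the KO libraries, against 0.720% and 0.812% of the 11944 tested features with a symbol. Their median SD on the log2 scale was 0.28 in WT and 0.27 in KO, against 0.09 and 0.10. Under 200 bases, 31 of 37 features were higher in WT replicate 2 than in WT replicate 1, with a median log2 difference of 0.85. In fragments of the recovered features of under 170 bases, the same median was 0.03, against 0.90 in FPKM. The KO libraries went the other way, with a median of KO replicate 2 over KO replicate 1 of 0.36 in fragments and 0.04 in FPKM.

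The largest log2 differences between replicates among features with a mean of at least 10 FPKM were at loci with few fragments or with shared coordinates. At chr1:191430057-191430254 the values were 269, 0, 0 and 0 FPKM, from 11, 0, 0 and 0 fragments, so that 1 library carried the whole signal. At chr19:23036720-23036963, in an intron of C330002G04Rik, they were 50.5, 0, 8.55 and 7.14 FPKM. At chr7:145250251-145250496, in an intron of *Tpcn2*, which encodes an endolysosomal ion channel, they were 13.9, 0, 7.23 and 28.7 FPKM, from 4, 0, 2 and 10 fragments. In all 3, WT replicate 2 stood at 0 and WT replicate 1 did not. The feature chr11:58509115-58509360 in Gm12254, a copy of *Rpl24*, stood at 27.7, 40.4, 10.8 and 0 FPKM from 8, 8, 3 and 0 fragments. At the shared locus chr13:61663246-62241414 the values were 49.6, 48.5, 119 and 7.72 FPKM, the WT libraries close together and the KO libraries on either side of them. None of these 5 was called between genotypes with all libraries, and each was called when a single library was left out, in the direction that the remaining libraries gave. The log2 fold change was -11.4 without WT replicate 2 at chr1:191430057-191430254 and 7.18 without WT replicate 1 at chr7:145250251-145250496. It was 6.31 without WT replicate 1 and -2.68 without WT replicate 2 at chr19:23036720-23036963. At chr13:61663246-62241414 it was -2.65 without KO replicate 1 and 1.27, not called, without KO replicate 2, and at chr11:58509115-58509360 it ran from -8.39 to -1.62. Where the remaining libraries of a genotype stand at 0, these values depend on the pseudocount.

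Whether features without a symbol differed between WT and KO was tested with limma on log2(FPKM + 0.1) over all 12990 features with a mean of at least 0.5 FPKM. A fold change on this scale understates the change of low features. The fit draws the spread of each feature toward that of all features at a similar level, and 11944 of those tested carry a symbol. Features without a symbol had the larger median SD (0.28 in WT and 0.27 in KO, against 0.09 and 0.10). Their p-values can therefore be too small. Of the 1046 tested features without a symbol, 27 were called higher in KO (2.58%) and 46 lower (4.40% of those tested), against 353 higher (2.72%) and 185 lower (1.42%) among all features tested, or 4.14% in either direction. Median log2 fold changes were -0.12 for features without a symbol and -0.02 for all features. The 2 KO libraries both exceeded the 2 WT libraries at 202 (19.3%) of the features without a symbol and were both lower at 334 (31.9%), against 27.0% and 31.7% of all. The share called higher was close to that of all features, as was the share with both KO libraries lower, whereas the share called lower was larger. The count of 73 calls depended on single libraries. It was 223, 184, 151 and 138 without WT replicate 1, WT replicate 2, KO replicate 1 and KO replicate 2, all 4 above the count with every library.

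Span divided the lower calls. Of the 96 features under 300 bases, all of which were tested, 14 were called lower (14.6%) and 1 higher, with a median log2 fold change of -0.53. Of the 950 tested features of 300 bases or more, 32 were called lower (3.37%) and 26 higher (2.74%), with a median of -0.07. In FPKM the median log2 ratio of KO to WT was -1.18 for the 12 recovered features of under 170 bases and -0.97 for the 20 of 170 to under 200 bases with at least 20 fragments in all and at least 1 in each library. In fragments the same medians were -0.16 and -0.22. From 1000 to under 10000 bases the medians were -0.08 in FPKM and -0.07 in fragments. In an alternative added after the data were seen, fragments per kilobase of span replaced FPKM at the features with recovered fragments, and the other features kept their FPKM. There, 894 features without a symbol were tested, 29 were called higher and 34 lower. Only 39 of the 73 features called in FPKM have recovered fragments, so the calls of the other features rest on the same values in both. Fragments are given below beside the calls on features of under 300 bases.

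**Figure D4:**
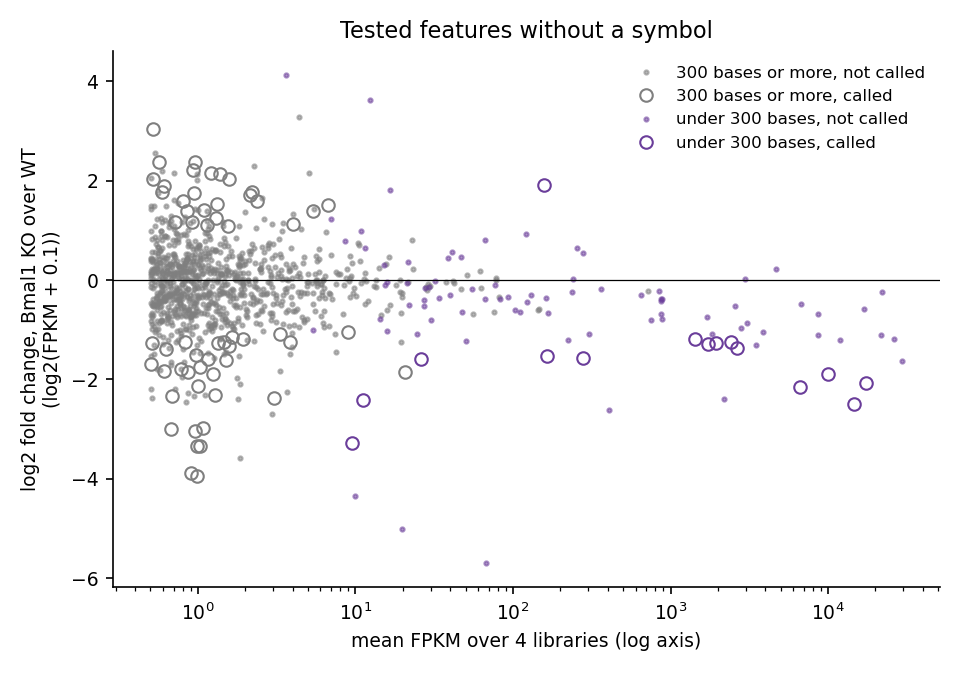
Log2 fold change of *Bmal1* KO over WT, from log2(FPKM + 0.1), against mean FPKM over the 4 libraries (log axis) for the 1046 tested features without a symbol. Open circles are called, and purple marks the 96 features under 300 bases, of which 14 are called lower and 1 higher, most of the lower ones at high mean FPKM.

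By annotation, lower calls outnumbered higher ones most in pseudogenes and in protein-coding genes, whereas over all features tested 2.72% were called higher and 1.42% lower. Of 163 tested features in pseudogenes, 1 was called higher and 9 lower, with a median log2 fold change of -0.34. Of the 163, 42 spanned under 300 bases and held 4 of the lower calls, with a median of -0.62. Long non-coding RNA genes had 10 higher and 11 lower of 237 (median -0.12), protein-coding genes 2 and 9 of 222 (median -0.02), and features outside annotated genes 13 and 17 of 419 (median -0.14). The genes that the pseudogene sequences match were measured separately in the same libraries. Over the 44 pairs with both tested, the median log2 fold change in FPKM was -0.70 for the feature without a symbol and -0.11 for the matching gene. In 35 of these pairs the feature spanned under 300 bases, with medians of -0.63 and -0.12. At such spans the FPKM that 1 fragment gives differed between the libraries, and the pairs were not compared in fragments. None of the 44 matching genes was called, and their log2 fold changes ran from -0.38 to 0.29. An example, chosen after its values were seen, is the 188-base feature chr8:100030486-100030673 in Impdh2-ps, with 3409, 4216, 1436 and 1491 FPKM (log2 fold change -1.37, SE 0.12, limma adjusted p = 0.00471) from 78, 53, 35 and 47 fragments. *Impdh2* stood at 326, 321, 262 and 243 FPKM (-0.36, limma adjusted p = 0.0352). Both were lower in each KO library than in each WT library, and the feature in the copy by more in FPKM.

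Among called features whose groups did not overlap and whose mean reached 1 FPKM in a genotype, the 8 with the largest rises spanned 198 to 10550 bases. At chr9:120675426-120676266, in the non-coding gene Gm39458, the values were 0, 0.0744, 1.21 and 0.794 FPKM (log2 fold change 3.03, SE 0.47, limma adjusted p = 0.0153). It had 0, 1, 16 and 11 fragments, nearly all in KO. The call was lost with a pseudocount of 0.01 (limma adjusted p = 0.0510) and with a pseudocount of 1, where the log2 fold change was 0.94. The long non-coding gene Gm30692 at chr8:24412397-24417096 stood at 0.220, 0.251, 1.35 and 2.01 FPKM (2.38, SE 0.30, limma adjusted p = 0.00928), and the RefSeq gene Gm30320 at chr2:166176690-166182745 at 0.278, 0.491, 2.16 and 1.88 FPKM (2.16, SE 0.29, limma adjusted p = 0.0108). The genotypes did not overlap at these features, and replicates differed by less than 2-fold on the scale of FPKM + 0.1.

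In the immunoglobulin kappa locus, which encodes antibody light chains in B cells, chr6:68819266-68829815 stood at 0.212, 0.0349, 0.700 and 1.32 FPKM (2.38, SE 0.54, limma adjusted p = 0.0434), and without KO replicate 2 the call was lost (1.96, limma adjusted p = 0.110). It was also lost with a pseudocount of 1 or 0.01, without the filter, with quantile scaling and without the variance trend. Its neighbour chr6:68829932-68868593, at Igkv1-88, was called higher as well (1.60, limma adjusted p = 0.0359). The 543-base feature chr17:24031870-24032412 near *Prss27*, a serine protease gene, stood at 0.287, 0.949, 2.85 and 2.22 FPKM (2.04, SE 0.47, limma adjusted p = 0.0458), from 2, 6, 18 and 15 fragments. That call was lost with a pseudocount of 0.01, without the filter, with quantile scaling and without the variance trend (limma adjusted p = 0.0503 to 0.1003). Each KO library exceeded each WT library, and the WT libraries differed over 2-fold. The 198-base feature chr1:131630724-131630921, RefSeq gene Gm8532, was the single short one called higher, with 97.8, 42.9, 235 and 254 FPKM (1.91, SE 0.36, limma adjusted p = 0.0256) from 4, 1, 10 and 14 fragments. Without the filter or the variance trend its call was lost (limma adjusted p = 0.0670 and 0.0706).

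The last 2 of the 8 rises are on the Y chromosome. At chrY:90742183-90743175, RefSeq gene Gm52481, the values were 0.649, 0.293, 2.03 and 2.57 FPKM (2.14, SE 0.35, limma adjusted p = 0.0186), from 12, 5, 34 and 45 fragments, and the call was lost without the filter (0.0508). At chrY:90824689-90825490, 2290 bases from *Erdr1*, they were 0.368, 0.160, 2.11 and 1.08 FPKM (2.21, SE 0.44, limma adjusted p = 0.0305), and without KO replicate 1 the call was lost (1.76, limma adjusted p = 0.0599), as it was without the filter (0.0691) or the variance trend (0.0582). Another feature, chrY:1088057-1089037, was below the filter at 0, 0, 0.667 and 0.233 FPKM, and the other 2 of the 5 on Y were tested and not called (0.17 and -0.07). Genes of the male-specific part of Y had higher values in KO too. *Eif2s3y*, a translation factor gene, stood at 1.40, 2.04, 44.6 and 53.1 FPKM, *Ddx3y*, an RNA helicase gene, at 0.235, 0.403, 16.4 and 20.6, and *Uty*, a histone demethylase family gene, at 0.110, 0.0965, 3.58 and 5.16. These genes are listed between 1008507 and 1286620 on Y, far from both called features. *Erdr1*, the nearest feature with a symbol to both called features (42215 and 2290 bases away), hardly differed (log2 fold change 0.04). A difference between the lines in the Y chromosome and a difference by genotype cannot be told apart at these loci.

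The 8 largest falls included pseudogenes of nuclear and ribosomal proteins. The feature in Gm11361, a protein-coding gene in GENCODE and the pseudogene Rps18-ps5 in RefSeq (chr13:28257857-28258144), stood at 19.2 and 15.5 FPKM in WT and at 1.30 and 2.15 FPKM in KO (-3.29, SE 0.24, limma adjusted p = 0.00260). It had 16, 10, 1 and 2 fragments, a KO to WT ratio of 0.121 (0.0235 to 0.396). Cbx3-ps8, a copy of a heterochromatin protein gene at chr9:7722763-7723355, stood at 1.70, 1.86, 0.134 and 0.126 FPKM (-3.03, SE 0.27, limma adjusted p = 0.00471), with 14, 14, 1 and 1 fragments and a ratio of 0.0751 (0.00867 to 0.298). For both, the replicates were close and the genotypes far apart on the FPKM scale and in fragments.

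A pair of falls had no fragment in either KO library. The feature chr5:143394070-143394472, in an intron of Gm42504, stood at 0.586, 3.34, 0 and 0 FPKM (limma adjusted p = 0.0294) from 2, 10, 0 and 0 fragments. With 3 fragments allowed over both KO libraries, KO was 3.80-fold lower. Counting error in the WT fragments was left out of this figure, so it is not a lower limit. At chr8:107598767-107599255, 10285 bases from the proteasome gene *Psmd7*, the values were 3.04, 0.596, 0 and 0 FPKM (limma adjusted p = 0.0265) from 17, 3, 0 and 0 fragments, 6.34-fold lower on the same terms. In each, 1 WT library carried most of the fragments. Both calls were lost with a pseudocount of 1 (limma adjusted p = 0.0970 and 0.0886), without the filter (0.0649 and 0.0581) and without the variance trend (0.0627 and 0.0569).

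Among the remaining falls, chr1:164002799-164020927 near *Mettl18*, a histidine methyltransferase gene, stood at 2.44, 1.25, 0.236 and 0 FPKM (limma adjusted p = 0.0284), and a feature sharing the locus of *Rnaseh2a*, a subunit of RNase H2, at 1.06, 2.84, 0.234 and 0 FPKM (chr8:84946991-84974313, limma adjusted p = 0.0357). Both calls were lost with a pseudocount of 0.01, without the filter and without the variance trend (limma adjusted p = 0.0631 to 0.0851). The feature at chr8:79558806-79609379, 30297 bases from *Otud4*, a deubiquitinase gene, stood at 1.25, 1.32, 0.101 and 0.0506 FPKM (-2.99, SE 0.34, limma adjusted p = 0.00738). The long non-coding gene Gm20005 at chr5:149641540-149648380 stood at 1.43, 2.56, 0.154 and 0.159 FPKM (-2.97, SE 0.35, limma adjusted p = 0.00773). All of these but the feature near *Mettl18* have coordinates shared with other features, so the position of the signal in the locus is uncertain. Of the 39 called features with recovered fragments, 4 had fewer than 20 fragments in all and 6 at least 100, with a median of 39.

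**Figure D5:**
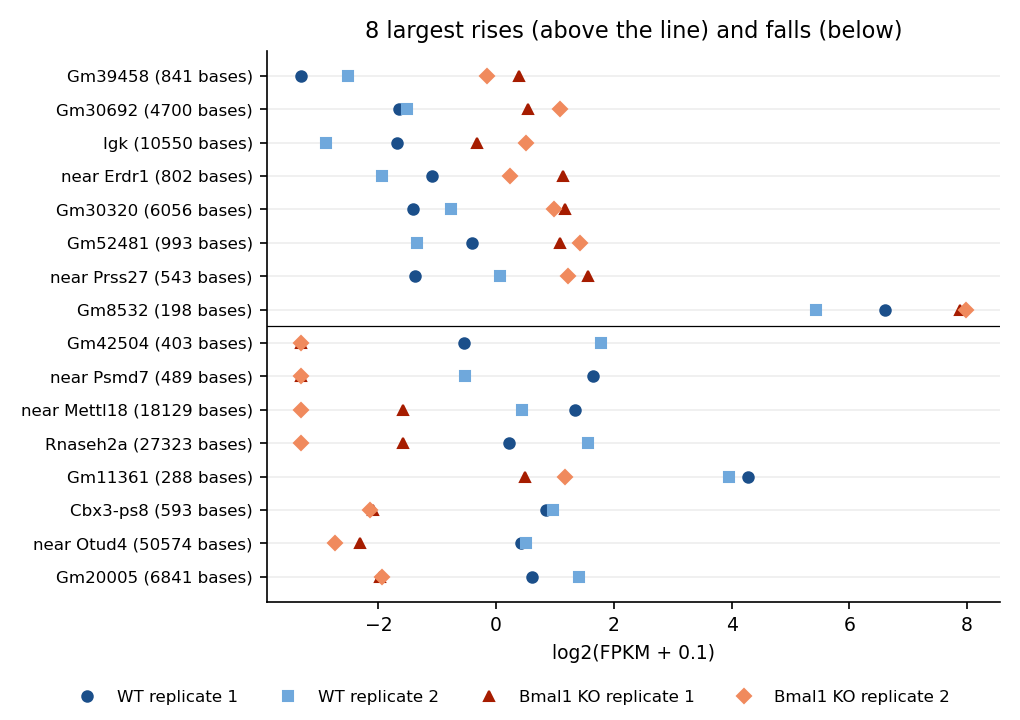
log2(FPKM + 0.1) of the 8 largest rises (above the line) and the 8 largest falls (below it) among called features without a symbol, 1 point per library, with the span in bases. WT (blue) and *Bmal1* KO (red) points do not overlap in any row, which the choice of rows required, and points at the left edge of the falls are libraries at 0 FPKM.

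Some called features lay close to another. Of the 73, 16 (6 higher and 10 lower) lay within 1 Mb of another one called in the same direction, 6 of them on chromosome 8. The same share over all features was not computed, and some of these are adjacent pieces, such as chr8:78065917-78083436 and chr8:78083538-78087612, which lie 102 bases apart. On chromosome 12, the features starting at 20294248, 20415602 and 20448233 were all called lower, and on chromosome 4 those starting at 146474601, 146933709 and 147175866 were. Among these, the 248-base feature chr12:20448233-20448480 had 9, 2, 1 and 1 fragments and the 252-base feature chr4:146933709-146933960 had 10, 12, 3 and 7. The region downstream of the locus listed for *Sox1*, a transcription factor gene of neural progenitors, held 10 features without a symbol within 200 kb. The region was singled out after the values were seen. *Sox1* itself stood at 1.32, 1.38, 6.91 and 7.61 FPKM (log2 fold change 2.34, SE 0.13, limma adjusted p = 0.00169). Of the 10, 7 were tested. All 7 had a positive log2 fold change, 6 of the 7 were higher in each KO library than in each WT library, against 27.0% of all features tested, and 2 were called higher. The 3 below the filter were also higher in each KO library.

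The called feature nearest to *Sox1*, chr8:12439390-12440297, stood at 0.736, 1.13, 4.06 and 2.59 FPKM (1.72, limma adjusted p = 0.0201). It began 2657 bases beyond the end of the locus listed for *Sox1*, chr8:12385771-12436732. Another feature with a symbol, Gm5607, was equally near, so the distance to *Sox1* itself is uncertain. The other, chr8:12541130-12554244, lay 104397 bases from the end of that locus and stood at 0.448, 0.315, 1.49 and 1.54 FPKM (1.76, limma adjusted p = 0.0136). Its nearest feature with a symbol was *Tubgcp3*, 60033 bases away, which was not called (0.17, limma adjusted p = 0.239). Between the called features, the 211-base feature chr8:12440349-12440559 stood at 77.4, 86.1, 191 and 128 FPKM and missed the 2-fold limit (0.94, limma adjusted p = 0.0300). The KO libraries were the higher ones at all 3 features without a symbol. Elsewhere, 5 of the 73 called features had as their nearest feature with a symbol a gene called in the same direction. Where the nearest gene was tested, this held for 3 of 29 called features at 5000 to under 50000 bases and 0 of 12 at 50000 or more. For all features the same share was not computed. Of these 5, chr7:143463216-143464159 lies near the cell cycle inhibitor gene *Cdkn1c* and Gm32688 near *Elk3*, an ETS family transcription factor gene. Gm13110 lies near *Prdm16*, a zinc finger transcription factor gene, and chr1:170982298-170982803 near *Fcgr2b*. The feature chr12:4739937-4778786, called lower, overlaps *Pfn4*.

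The direction of change also varied with the chromosome. On chromosome 18, 21 of 31 tested features without a symbol lay lower in both KO libraries than in both WT libraries (67.7%), with a median log2 fold change of -0.61, whereas 33.2% of its features with a symbol did, with a median of -0.04. On chromosome 1, 27 of 70 lay higher in both KO libraries (38.6%, median 0.28), close to the 39.7% of its features with a symbol (median 0.09). These are descriptions of single chromosomes chosen among 21 after the values were seen.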

How the data were processed

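RNA of 2 WT and 2 *Bmal1* KO ESC libraries was depleted of ribosomal RNA and sequenced. Per the submitters' processing notes and the study's methods, the authors aligned reads with TopHat2 2.1.1 and Bowtie2 2.3.0 to GRCm38 (mm10) and computed the deposited FPKM values per feature with Cufflinks 2.2.1. Fragment counts were not among the values used, so depth was inferred as described for the recovered fragments. Features without a symbol were matched by position to GENCODE M21 and RefSeq annotation; starts in the files count from 0, and 1 was added. Sequences were aligned with blastn 2.17.0 (smallest stretch 40 bases). KO was compared with WT by limma 3.58.1 (trend, R 4.3.3) on log2(FPKM + 0.1) over features with a mean of at least 0.5 FPKM, with Benjamini-Hochberg adjustment over all 12990, after a check on simulated data. All simulated features had the same spread, so the check does not cover the larger spread of features without a symbol. Calls needed an adjusted p under 0.05 and a change over 2-fold. Ratios of fragments carry exact 95% intervals conditional on the total and scaled by library size.

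The features, lists and rules were chosen with earlier results of these data known. Features named by rule were the 10 with the highest mean FPKM, the 8 largest rises and the 8 largest falls called with groups that do not overlap and a mean of at least 1 FPKM in a genotype, and the 5 with the largest difference between replicates at a mean of at least 10 FPKM, beside any in a list of 5 classes of abundant non-coding RNA with *Malat1* and *Neat1*. Alternatives changed the pseudocount, filter, scaling, variance trend, span limit and libraries.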

Additional observations from a re-analysis of the deposited data

How the results depend on the processing

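The 73 calls (27 higher, 46 lower) became 37 (12 and 25) with a pseudocount of 1, 48 (15 higher) with a filter of 1 FPKM and 118 (42 and 76) with the replicate block. Leaving out 1 library gave 138 to 223 calls, 32 to 83 higher and 81 to 150 lower, with the lone library assumed to vary like the others. A pseudocount of 0.01, no filter, quantile or median-of-ratios scaling, scaling to features with a symbol, no variance trend, spans of at least 300 bases and fragments per kilobase of span gave 54 to 79 calls. Without the filter, 33 of the 61 calls were among the 73. The replicate numbers were not taken as pairs, since no label ties them to a batch and there are only 2. Deviations of same-numbered libraries correlated at 0.154 over features with a symbol (0.365 at a mean of at least 10 FPKM) and at 0.000277 over those without. The replicate block added calls at chr3:106034912-106035064 (limma adjusted p = 0.0151) and chr9:57483396-57483553 (0.0364).

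The difference in FPKM share (-13.5 points) was -11.98 without the feature of highest FPKM, -4.53 without the 10 highest, -0.04 over spans of at least 300 bases and -7.80 with fragments per kilobase of span, where 5 unresolved short features kept their FPKM. Leaving out 1 library gave -18.8 to -8.27. Leaving out mitochondrial and unplaced features was not run, since none lacks a symbol.

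Of 437 values for 31 named features, 371 kept their side of the threshold, 37 lost and 19 gained a call, and 10 changed sign. The sign changed at chr11:46728547-46728700 (0.76 with quantile scaling, -0.66 to 0.19 over the fits with 1 library left out), chr6:145266342-145266499 (0.38 with quantile scaling, 0.33 with fragments per kilobase of span), chr10:45875918-45876083 (0.011 with quantile scaling, -1.84 to 0.47 with 1 library left out, 0.21 with fragments per kilobase of span), chr19:23036720-23036963 (-2.68 to 6.31 with 1 library left out) and chr13:61663246-62241414 (-2.65 to 1.27 with 1 library left out). The causes were not tested. Depth is low at many features, with a median of 37 fragments in all 4 libraries and 180 of 1194 features under 20.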
